A study of Mus musculus with 12 samples.

Results

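Epidermal barrier lipid synthesis was followed through 34 genes that make, modify or export the ceramides, very long chain fatty acids and omega-lipids of the outer skin. The genes were chosen by name for these functions, as rows of the count table whose Entrez Gene ID maps to the list. All 34 were found among the 23469 IDs of the table, and all 34 passed the filter on low counts that left 15341 genes to test. RNA was sequenced from the skin of BALB/c mice in 12 libraries, 3 in each of 4 groups. The groups are SCCA2KO-labelled skin under ASP, wild-type skin under ASP, SCCA2KO-labelled skin under SAL and wild-type skin under SAL. In all groups the back was shaved on day 0, and per the shared protocol the patch was taped on at day 1 and removed at day 4, with the skin below it collected on day 5. An ASP patch held 200 µg of an extract of the mould Aspergillus fumigatus, a source of airborne allergen, and the labels do not expand SAL. For the animals that are not wild type the titles read SCCA2KO, the genotype field reads Serpinb3a-transgenic and the design text speaks of Serpinb3a null mice. No promoter, age or number of animals per library is stated in the labels, so p-values measure only the spread between these samples.

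The barrier of the epidermis is a stack of lipid sheets between the dead cells of the outermost layer, built mainly from ceramides, cholesterol and free fatty acids. Granular keratinocytes, the last living layer, make ceramides from serine and fatty acids, extend the fatty acids to unusual lengths, attach linoleic acid to the omega end and load the products into lamellar granules. Outside the cell, hydrolases trim the released precursors, and lipoxygenases oxidise the linoleate so that the lipid can be joined to the protein envelope. Inherited loss of many of these enzymes causes ichthyosis, a disorder of dry and scaling skin.

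Library totals ran from 6705396 to 12933436 counts. Serpinb3a, a protease inhibitor of keratinocytes and the gene that the labels name, stood at 1.74 to 8.61 CPM (counts scaled to a common library size) in the 6 SCCA2KO-labelled libraries and at 0.264 to 1.40 CPM in the 6 wild-type libraries. It was thus counted higher, not lower, where the titles name a knockout, and every direction between genotypes below follows the label. It has near-identical paralogs, among which the authors' counting could have split reads. All CPM values are scaled by the trimmed mean of M-values (TMM). The lowest median Spearman correlations with the other libraries were 0.894 for wild-type ASP replicate 3, 0.899 for SCCA2KO-labelled SAL replicate 1 and 0.902 for wild-type ASP replicate 2, and the other 9 libraries had 0.927 to 0.945. As a check of the tissue, markers of granular keratinocytes summed to 3993 to 12380 CPM over the 8 genes tested, those of fibroblasts to 2180 to 3740 CPM and those of skeletal muscle to 17948 to 97474 CPM. The samples therefore hold whole skin with muscle, and in such bulk RNA fewer cells of a type and less RNA per cell cannot be told apart.

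Per length of annotated exon (all exons of a gene merged), the members spanned a wide range of levels (plot of member levels). Elovl4, the elongase that makes the ultra-long fatty acids of barrier ceramides, was the most abundant, at 159 ± 59.9 CPM per kilobase (SD, n = 12). Elovl6, which elongates palmitate to stearate, followed at 112 ± 41.2 CPM per kilobase (SD, n = 12). Both members above 100 CPM per kilobase were thus elongases, but their library ranges overlapped, at 94.1 to 298 for Elovl4 and 50.7 to 169 for Elovl6. Elovl6, Elovl4 and the lipid transporter Abca12 together took 43.2% to 53.9% of the members' summed CPM in a library. Fa2h, which adds the 2-hydroxyl group of many skin ceramides, averaged 55.2 ± 28.3 CPM per kilobase, and Sptlc3, a subunit of the serine palmitoyltransferase that starts ceramide synthesis, 38.3 ± 14.6 CPM per kilobase (SD, n = 12). Its partner subunits lay lower, Sptlc2 at 5.33 ± 1.55 and Sptlc1 at 4.02 ± 1.29 CPM per kilobase (SD, n = 12).

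**Figure D1:**
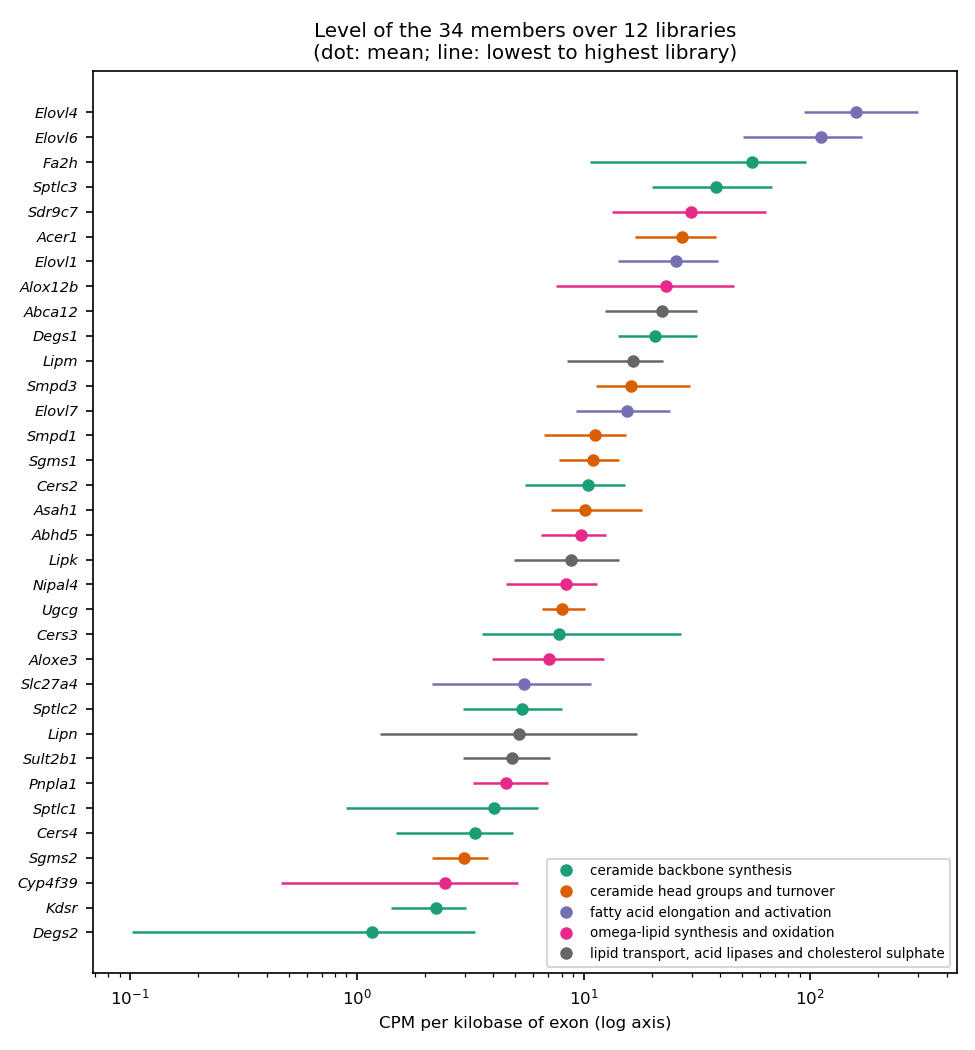
Mean CPM per kilobase of exon of each of the 34 members over 12 libraries (dots, log axis), with lines from the lowest to the highest library and colours for the role of the gene. Elovl4 at 159 and Elovl6 at 112 lie above all other means, and Degs2 at 1.17 lies lowest.

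The omega-lipid genes ranged from among the higher members to among the lowest. Sdr9c7, a dehydrogenase that acts on the oxidised linoleate ceramides, averaged 29.8 ± 13.8 CPM per kilobase, and the lipoxygenase Alox12b, which makes the first oxidation, 23.1 ± 11.5 CPM per kilobase (SD, n = 12). The second lipoxygenase, Aloxe3, averaged 7.07 ± 2.31 CPM per kilobase (SD, n = 12). Before division by length the lipoxygenases lay closer, Alox12b at 56.1 CPM and Aloxe3 at 45.25 CPM, with 2431 and 6397 bases of annotated exon. Pnpla1, which transfers linoleic acid onto the omega-hydroxyl group, stood at 4.56 ± 1.03 CPM per kilobase, its activator Abhd5 at 9.79 ± 2.04 and the membrane protein Nipal4 at 8.33 ± 2.15 CPM per kilobase (SD, n = 12). Cyp4f39, the mouse fatty acid omega-hydroxylase, was among the lowest at 2.46 ± 1.36 CPM per kilobase (SD, n = 12). The lowest member was Degs2, which puts the 4-hydroxyl group of phytoceramides in place, at 1.17 ± 0.873 CPM per kilobase (SD, n = 12). Its counts ran from 2 in wild-type ASP replicate 3 to 72 in SCCA2KO-labelled SAL replicate 2, so its values carry the largest counting error of the list.

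Members differed in how far the libraries spread. The ratio of the highest to the lowest library had a median of 2.74 over the 34 members, was below 2 for 4 of them and above 4 for 9. The steadiest were the head group enzymes Ugcg, which makes glucosylceramide (1.55), and the sphingomyelin synthases Sgms2 (1.75) and Sgms1 (1.84), with Abhd5 at 1.93. The most variable were Degs2 (32.6), the acid lipase gene Lipn (13.6), Cyp4f39 (11.1), Fa2h (8.96), Cers3, the ceramide synthase for ultra-long chains (7.50), and Sptlc1 (7.08). Of the 34 members, 9 were lowest in wild-type ASP replicate 3 and 9 in wild-type ASP replicate 2, while 11 were highest in SCCA2KO-labelled SAL replicate 2 (map of members by library).

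**Figure D2:**
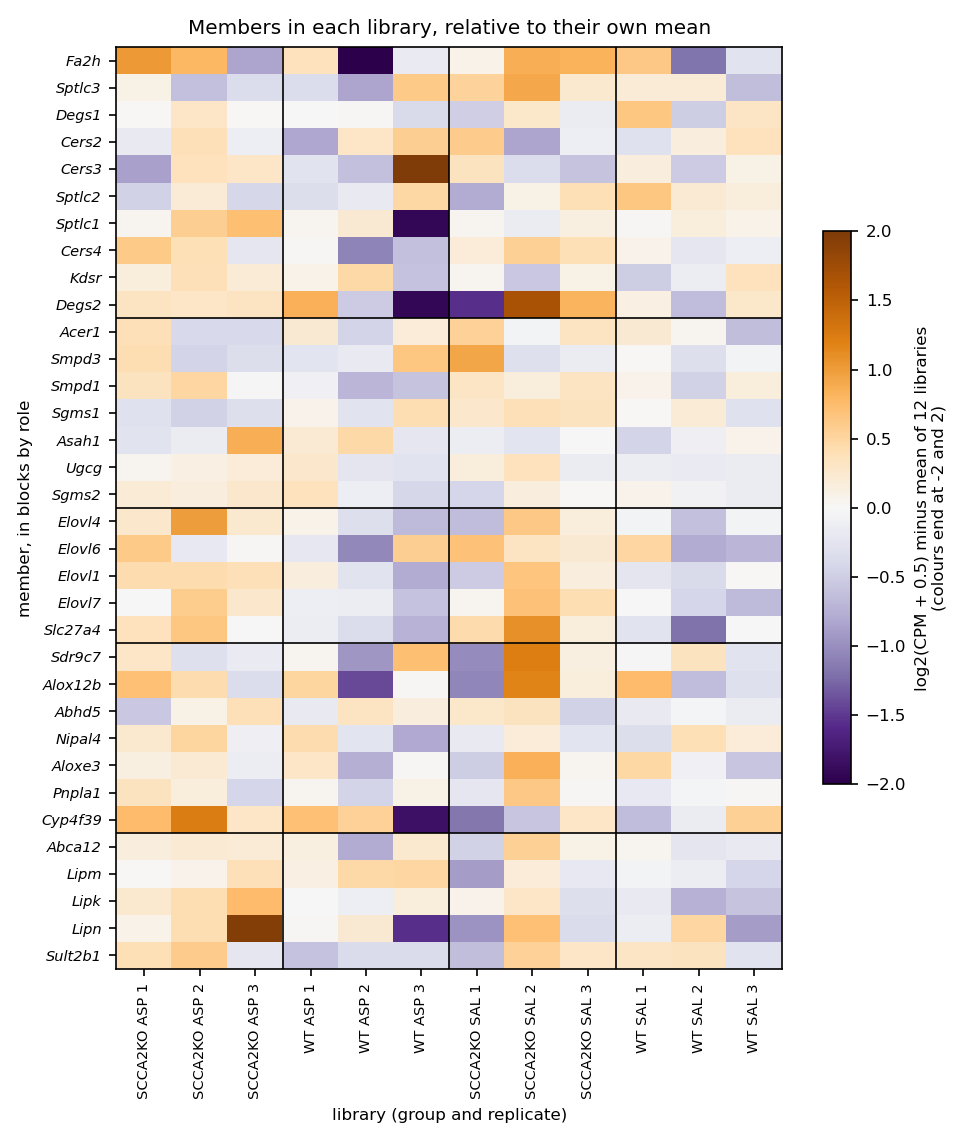
Level of each member in each of the 12 libraries as log2(CPM + 0.5) minus the gene's own mean, with colours ending at -2 and 2, columns grouped by genotype and treatment, and rows in blocks by role. The elongase and activation block is mostly above its mean in SCCA2KO-labelled libraries, but Elovl4 and Elovl1 are below theirs in SAL replicate 1. Wild-type ASP replicate 3 holds a high Cers3 beside a low Sptlc1.

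Several members moved with the content of granular keratinocyte transcripts. The granular marker sum (Lor, Flg2, Hrnr, Ivl, Tgm3, Casp14, Cdsn and Rptn) was 9776, 11271 and 10236 CPM in SCCA2KO-labelled ASP libraries 1 to 3, against 9088, 4894 and 4241 CPM in wild-type ASP libraries. Under SAL it was 3993, 12380 and 9278 CPM in SCCA2KO-labelled libraries and 8678, 6392 and 6378 CPM in wild-type libraries. Across the 12 libraries, log2(CPM + 0.5) of 27 of the 34 members correlated positively with the log2 marker sum, where 50.7% of all genes did, and the median Pearson r was 0.53 for the members and 0.01 for all genes. Of the members, 4 passed a permutation test adjusted over 15333 genes, all positive, which is 11.8% of the list against 0.267% of all genes. With Spearman's rho, 0 members and 0 genes of all tested passed. The relation was examined after the data had been seen. Markers of spinous and basal keratinocytes summed to 3611 to 12240 and 1184 to 4799 CPM. Like the granular sum, both were lowest in SCCA2KO-labelled SAL replicate 1. No correlation of the members with those sums was computed, so the relation cannot be assigned to the granular layer alone.

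The members that passed were 2 elongases, a hydroxylating desaturase and a sphingomyelin synthase (plot against granular markers). Elovl1, which elongates saturated fatty acids to very long chains, had r = 0.91 (adjusted permutation p = 0.0290) and rho = 0.93 (adjusted permutation p = 0.127). Elovl4 had r = 0.89 (adjusted permutation p = 0.0292) and rho = 0.96 (adjusted permutation p = 0.127). Degs2 had r = 0.89 (adjusted permutation p = 0.0290) and rho = 0.83, and Sgms2 had r = 0.89 (adjusted permutation p = 0.0427) and rho = 0.81. Without the 2 libraries farthest from the median marker sum (wild-type ASP replicate 3 and SCCA2KO-labelled SAL replicate 1), r was 0.85 for Elovl1, 0.83 for Elovl4, 0.76 for Degs2 and 0.75 for Sgms2. Within groups, after the mean of each group was taken off, r was 0.88 for Elovl1, 0.85 for Elovl4, 0.94 for Degs2 and 0.93 for Sgms2. The lipoxygenases had r = 0.75 (Alox12b) and 0.71 (Aloxe3) and Abca12 had 0.70, and these 3 did not pass. For Abca12, r was 0.96 without the same 2 libraries.

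**Figure D3:**
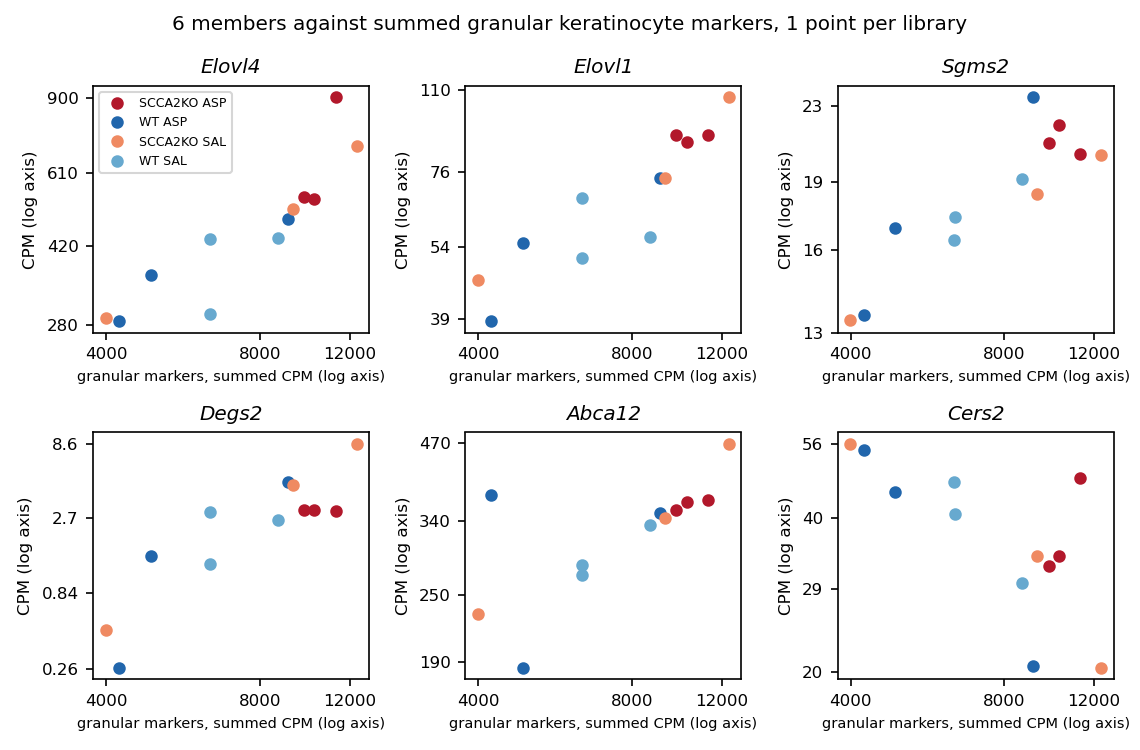
CPM of 6 members against the summed CPM of the granular keratinocyte markers (both log axes), with 1 point per library coloured by group. Elovl4, Elovl1, Sgms2 and Degs2 are higher where the marker sum is higher, Cers2 has the opposite slope (r = -0.72, not passing), and wild-type ASP replicate 3 and SCCA2KO-labelled SAL replicate 1 lie at the low end.

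Other members had a negative r, or one near 0, over the 12 libraries. Cers2, the ceramide synthase of most tissues for very long chains, had r = -0.72 (adjusted permutation p = 0.174) and the neutral sphingomyelinase gene Smpd3 -0.66 (adjusted permutation p = 0.213), and neither passed. Without the same 2 libraries r was -0.54 for Cers2 and -0.10 for Smpd3. Elovl6 (r = 0.10), Kdsr, the reductase of the second step of ceramide synthesis (0.01), the acid ceramidase gene Asah1 (0.00), Sptlc3 (-0.05) and the alkaline ceramidase gene Acer1 (-0.14) lay near 0. These low values depended on the same 2 libraries, without which r was 0.79 for Elovl6, 0.50 for Sptlc3, 0.32 for Acer1, -0.25 for Asah1 and -0.39 for Kdsr. The members' summed CPM was 28.7% to 39.9% of the granular marker sum in 10 libraries, 75.7% in wild-type ASP replicate 3 and 76.5% in SCCA2KO-labelled SAL replicate 1. In these 2 libraries the members were thus high relative to the granular markers.

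The promoters of the 4 members that passed are shown to set their sequences side by side, as windows of 300 bases (250 before to 50 after the start) from RefSeq on GRCm38.p6, 5′ to 3′ on the gene's strand. Capitals mark matches on either strand to the letters searched. These were the AP-2 motif GCCNNNGGC, the CCAAT box CCAAT, the KLF motif CACCC, the nuclear receptor half-site AGGTCA, the AP-1 motif TGANTCA, the grainyhead motif AACNGGTT and TATAAA, and no motif is a stretch of another. Elovl4 lies at chr9:83806256-83806555 (minus strand), the first of 2 Elovl1 windows at chr4:118427843-118428142 (plus strand), Degs2 at chr12:108702257-108702556 (minus strand) and the first of 6 Sgms2 windows at chr3:131491394-131491693 (minus strand).
Elovl4: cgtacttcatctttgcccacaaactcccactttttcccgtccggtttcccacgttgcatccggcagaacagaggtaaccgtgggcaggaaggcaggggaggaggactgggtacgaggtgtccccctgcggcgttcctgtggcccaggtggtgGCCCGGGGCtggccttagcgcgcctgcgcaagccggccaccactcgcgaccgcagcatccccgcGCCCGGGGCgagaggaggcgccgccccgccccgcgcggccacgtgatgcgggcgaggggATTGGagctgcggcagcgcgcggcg
Elovl1: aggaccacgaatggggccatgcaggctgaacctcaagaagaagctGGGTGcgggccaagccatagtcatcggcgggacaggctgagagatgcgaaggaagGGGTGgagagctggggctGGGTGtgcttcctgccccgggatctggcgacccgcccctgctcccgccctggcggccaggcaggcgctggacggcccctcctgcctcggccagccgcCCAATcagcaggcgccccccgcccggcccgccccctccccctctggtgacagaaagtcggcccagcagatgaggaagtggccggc
Degs2: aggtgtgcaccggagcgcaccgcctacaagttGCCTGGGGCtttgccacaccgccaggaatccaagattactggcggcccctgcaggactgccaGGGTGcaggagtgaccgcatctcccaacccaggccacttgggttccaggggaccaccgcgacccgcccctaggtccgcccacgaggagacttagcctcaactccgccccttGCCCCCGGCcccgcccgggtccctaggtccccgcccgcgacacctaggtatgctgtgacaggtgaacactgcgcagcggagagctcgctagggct
Sgms2: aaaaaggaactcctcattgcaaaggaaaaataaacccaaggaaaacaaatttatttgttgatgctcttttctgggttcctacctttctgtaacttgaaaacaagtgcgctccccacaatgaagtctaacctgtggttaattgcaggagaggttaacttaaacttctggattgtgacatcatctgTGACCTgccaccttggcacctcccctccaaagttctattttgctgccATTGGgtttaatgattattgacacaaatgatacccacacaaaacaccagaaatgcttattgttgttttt

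In these windows the Elovl4 promoter holds 2 AP-2 matches and 1 CCAAT box, and the Degs2 promoter 2 AP-2 matches and 1 KLF match. The Elovl1 window holds 3 KLF matches and 1 CCAAT box, and the Sgms2 window 1 nuclear receptor half-site and 1 CCAAT box. No motif was found in all 4. Of the members, 29 matched a window in the RefSeq table, and 10 of the 29 (34.5%) held an AP-2 match, where 16.5% of all 27025 windows did. The nuclear receptor half-site was in 17.2% of member windows and 16.0% of all, the KLF motif in 58.6% and 56.7%, and the CCAAT box in 31.0% and 37.9%. TATAAA was in 3.45% of member windows against 14.2% of all, AP-1 in 3.45% against 7.93%, and the grainyhead motif in 0 member windows against 2.01%. A match is a description of the letters and not of a bound site.

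Between genotypes, averaged over both treatments, most members stood higher in SCCA2KO-labelled skin, but none passed the test. Of the 34 members, 28 had a log2 fold change above 0, where 47.4% of all genes did, and the median was 0.21 for the members against -0.02 for all genes. With edgeR's quasi-likelihood test, 0 members were called in either direction, against 0.00652% of all genes called higher, which is 1 gene, Serpinb11. The other tools, DESeq2 and limma-voom, also called 0 members. At an unadjusted p under 0.05, 7 members were higher (1.69% of all genes) and 0 lower (2.05% of all genes): Slc27a4, Elovl7, Cers4, Smpd1, Elovl1, Lipk and Elovl4. The lowest adjusted p of a member was 1.00. The members summed to 3380 ± 393 CPM in SCCA2KO-labelled libraries and 2642 ± 548 CPM in wild-type libraries (SD, n = 6 each), and the ranges of 2941 to 4012 and 1953 to 3266 CPM overlapped. As a share of the summed basal, spinous and granular markers, they were 18.3 ± 8.14% in SCCA2KO-labelled and 17.6 ± 5.36% in wild-type libraries. Of the granular marker sum alone they were 40.0 ± 18.1% and 42.7 ± 16.4% (SD, n = 6 each). Leaving out wild-type ASP replicate 1 put the members' median at 0.31, and leaving out both wild-type ASP replicate 3 and SCCA2KO-labelled SAL replicate 1 put it at 0.36. It fell to 0.15 without wild-type ASP replicate 2 and to 0.17 without SCCA2KO-labelled SAL replicate 2. Without SCCA2KO-labelled ASP replicate 1 it was 0.17, with 25 of 34 members above 0.

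Among the roles, fatty acid elongation and activation had the highest median log2 fold change between genotypes (0.59), with 5 of 5 genes above 0. Slc27a4, which imports and activates long-chain fatty acids and whose loss in mice gives a fatal barrier defect, had a lowest, median and highest value of 22.2, 29.6 and 47.7 CPM in SCCA2KO-labelled libraries. In wild-type libraries these were 9.46, 17.9 and 22.3 CPM. The genotypes overlapped only where the lowest SCCA2KO-labelled library met the highest wild-type library, and the log2 fold change was 0.90 ± 0.26 (SE, unadjusted p = 0.00318 from edgeR). Elovl7, an elongase of long saturated chains, had 59.2, 75.7 and 96.9 CPM as lowest, median and highest value in SCCA2KO-labelled libraries. Wild-type libraries had 37.4, 49.4 and 59.2 CPM. It was the 1 member whose genotypes did not overlap, by a margin smaller than the rounding of these values, where 0.150% of all genes were higher and 0.0521% lower without overlap. Its log2 fold change was 0.66 ± 0.21 (SE, unadjusted p = 0.00530 from edgeR). Elovl1 (0.52 ± 0.23), Elovl4 (0.59 ± 0.26) and Elovl6 (0.45 ± 0.31) had values of the same direction.

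**Figure D4:**
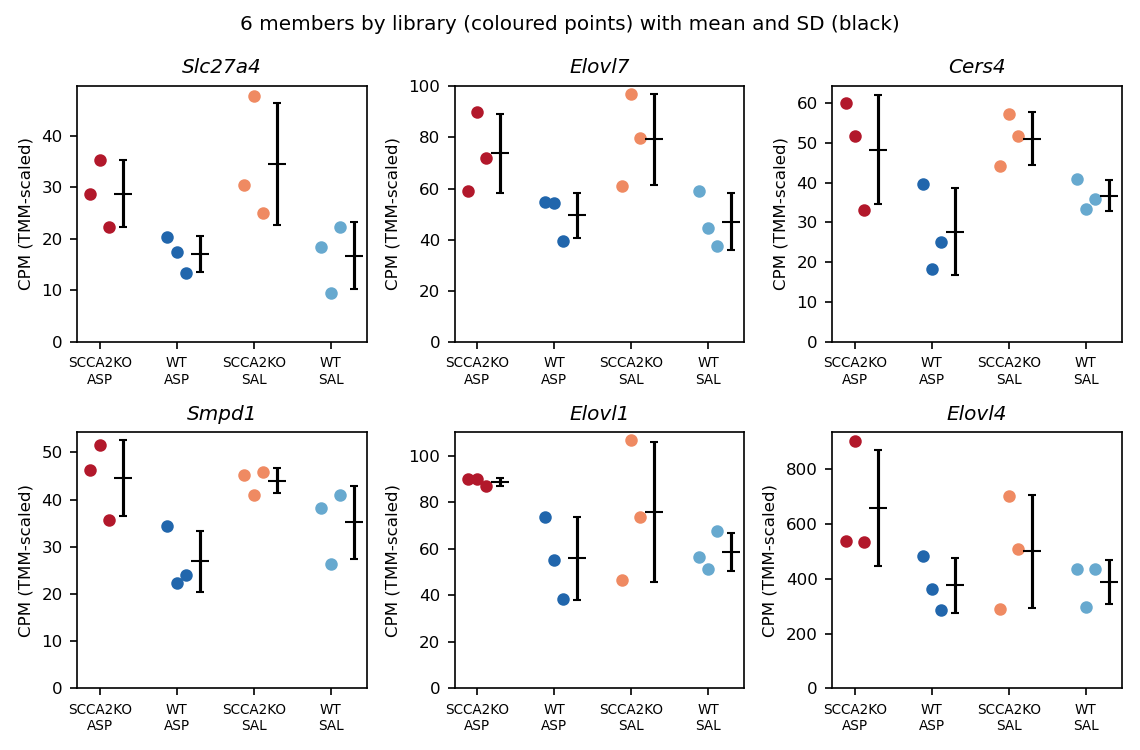
TMM-scaled CPM of 6 members in each library (coloured points) with the mean and SD of each group of 3 (black). Slc27a4 and Elovl7 stand higher in SCCA2KO-labelled skin under both treatments, with Slc27a4 means of 28.7 against 17.0 CPM under ASP and 34.4 against 16.7 CPM under SAL, and the other 4 overlap under ASP, under SAL or under both.

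Ceramide synthesis itself was mixed. Cers4, a ceramide synthase of skin for long to very long chains, had a lowest, median and highest value of 33.2, 51.7 and 60.0 CPM in SCCA2KO-labelled libraries, against 18.3, 34.6 and 40.9 CPM in wild-type libraries. The ranges overlapped, and the log2 fold change was 0.64 ± 0.23 (SE, unadjusted p = 0.0124 from edgeR). Fa2h (0.79 ± 0.40), Degs2 (0.73 ± 0.60) and Sptlc1 (0.36 ± 0.31) were above 0, as were Sptlc3 (0.21 ± 0.26) and Kdsr (0.07 ± 0.25). Cers3 (-0.47 ± 0.40), Sptlc2 (-0.30 ± 0.24), Cers2 (-0.08 ± 0.28) and Degs1, the desaturase that completes ceramide (-0.05 ± 0.22), were below 0, so that 6 of the 10 backbone genes were positive. Of the head group and turnover genes 6 of 7 were positive, led by the acid sphingomyelinase gene Smpd1 (0.52 ± 0.21), with Ugcg at 0.23 ± 0.19, Acer1 at 0.12 ± 0.23 and Sgms1 at -0.06 ± 0.19.

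The omega-lipid genes were above 0 in 7 of 7, with small values and a median of 0.14. They ran from Abhd5 (0.06 ± 0.22) to Alox12b (0.36 ± 0.38), and each estimate was smaller than its SE. The count of 7 of 7 did not hold with the granular marker sum as a covariate, as given below. Of the 5 genes of transport, acid lipases and cholesterol sulphate, 4 were above 0. Lipk, an acid lipase of the granular layer, had 0.50 ± 0.22, its neighbour gene Lipn 0.71 ± 0.44 and Sult2b1, which makes cholesterol sulphate, 0.38 ± 0.26. Abca12, which loads glucosylceramide into lamellar granules, had 0.25 ± 0.24 and the acid lipase gene Lipm -0.13 ± 0.21.

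**Figure D5:**
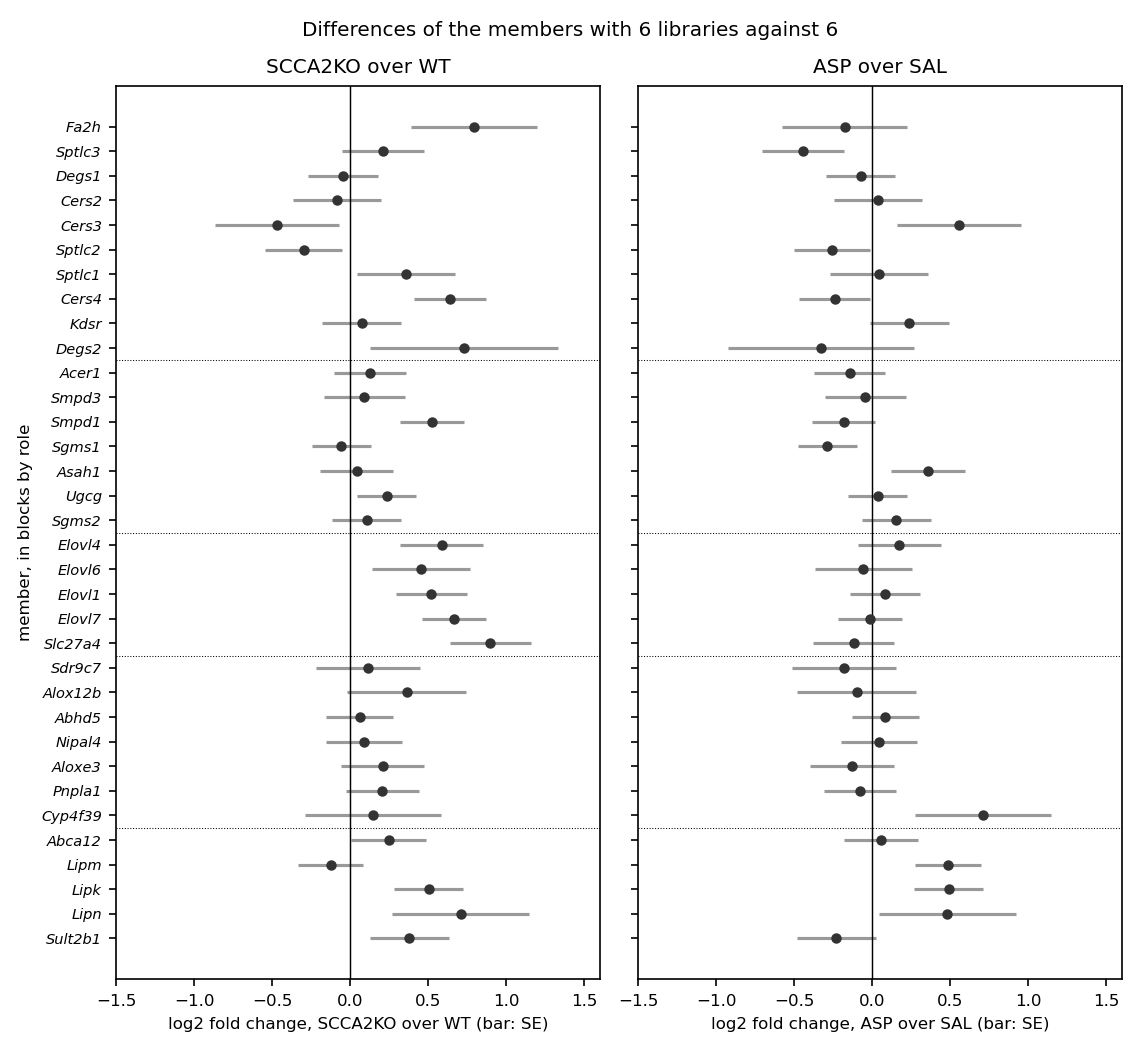
Log2 fold change with its SE of each of the 34 members, in blocks by role, for SCCA2KO-labelled over wild type (left) and ASP over SAL (right), each with 6 libraries against 6. On the left 28 of 34 points lie above 0, including all 5 of the elongation and activation block, and on the right 16 of 34 do.

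The summed markers of several cell types had different means in the 2 genotypes, with ranges that overlapped and no test made of the sums. The granular marker sum was 9489 ± 2913 CPM in SCCA2KO-labelled and 6612 ± 1954 CPM in wild-type libraries (SD, n = 6 each), with ranges of 3993 to 12380 and 4241 to 9088 CPM. The 9 sebocyte markers, genes of the lipid-secreting gland of the hair follicle, summed to 463 to 750 CPM in SCCA2KO-labelled and 338 to 543 CPM in wild-type libraries. Macrophage markers summed to 826 ± 268 CPM in SCCA2KO-labelled and 640 ± 174 CPM in wild-type libraries, and endothelial markers to 77.6 ± 20.8 CPM in SCCA2KO-labelled and 114 ± 21.3 CPM in wild-type libraries (SD, n = 6 each). With the granular marker sum as a covariate, an alternative added after seeing the data, 21 of 34 members were above 0 and the median was 0.14. Under that fit Slc27a4 had 0.72 ± 0.28, Elovl7 0.45 ± 0.21, Cers4 0.46 ± 0.23 and Smpd1 0.45 ± 0.22. Elovl1 had 0.18 ± 0.20 and Elovl4 0.19 ± 0.24. Of the omega-lipid genes, Abhd5 (0.13 ± 0.25) and Pnpla1 (0.04 ± 0.26) stayed above 0. The others, Sdr9c7 (-0.36 ± 0.41), Alox12b (-0.29 ± 0.34), Cyp4f39 (-0.24 ± 0.50), Aloxe3 (-0.18 ± 0.25) and Nipal4 (-0.07 ± 0.26), were below 0. The part of sebocyte, macrophage and endothelial content in these values was not tested.

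Under ASP alone, the comparison that asks what the genotype does in exposed skin, 24 of 34 members were above 0 (46.6% of all genes) with a median of 0.24 against -0.04. That median was 0.40 without wild-type ASP replicate 1 and 0.10 with the granular covariate. It was 0.15 without the 3 libraries farthest from the rest (wild-type ASP replicates 2 and 3 and SCCA2KO-labelled SAL replicate 1). That removal leaves wild-type ASP replicate 1 as the only library of its group, here and wherever it is used below. With edgeR 0 members and 0 genes were called, with 471 genes at an unadjusted p under 0.05, and DESeq2 called 5 genes and limma-voom 0. At an unadjusted p under 0.05, 4 members were higher (0.906% of all genes) and 0 lower (2.16% of all genes). No overlap between groups was seen for 7 members that were higher (4.15% of all genes) and for 1, Sgms1, that was lower (3.47% of all genes). The 7 were Smpd1, Elovl1, Elovl4, Elovl7, Slc27a4, Lipk and Sult2b1, which again include 4 of the 5 elongation and activation genes. With the granular covariate, Slc27a4 went from 0.76 ± 0.37 to 0.46 ± 0.42 and Elovl7 from 0.57 ± 0.29 to 0.20 ± 0.32 (SE). Elovl1 went from 0.67 ± 0.32 to 0.15 ± 0.30, but Elovl6, also of that role, from 0.28 ± 0.44 to 0.41 ± 0.54 (SE).

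Smpd1, which splits sphingomyelin into ceramide outside the granular cell, had 46.2, 51.6 and 35.8 CPM in SCCA2KO-labelled ASP libraries, against 34.3, 22.3 and 24.0 CPM in wild-type ASP libraries. Every SCCA2KO-labelled library lay above every wild-type library, with a log2 fold change of 0.73 ± 0.29 (SE, unadjusted p = 0.0232 from edgeR), and of 0.38 without the 3 libraries farthest from the rest. Cers4 had 60.0, 51.7 and 33.2 CPM in SCCA2KO-labelled ASP libraries and 39.6, 18.3 and 25.1 CPM in wild-type ASP libraries. Its groups overlapped between SCCA2KO-labelled replicate 3 and wild-type replicate 1 (0.80 ± 0.32, and 0.29 without the 3 farthest libraries or 0.50 with the granular covariate). Lipn had 8.46, 10.8 and 32.4 CPM in SCCA2KO-labelled ASP libraries and 8.03, 9.34 and 2.38 CPM in wild-type ASP libraries. Its difference (1.37 ± 0.62) rests on 1 high and 1 low library in groups that overlapped, and it was 0.54 when SCCA2KO-labelled ASP replicate 3 was left out and 0.69 with the granular covariate.

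A core enzyme of each step was also followed under ASP. Elovl4 had 539, 903 and 533 CPM in SCCA2KO-labelled ASP libraries, against 482, 361 and 285 CPM in wild-type ASP libraries. The groups did not overlap (0.81 ± 0.38, unadjusted p = 0.0467 from edgeR), and the value was 0.51 without SCCA2KO-labelled ASP replicate 2, 0.45 without the 3 farthest libraries and 0.19 with the granular covariate. Cers3 had 11.6, 27.7 and 26.5 CPM in SCCA2KO-labelled ASP libraries, against 17.7, 13.9 and 87.3 CPM in wild-type ASP libraries. Its estimate of -0.85 ± 0.56 rests on wild-type ASP replicate 3, and without that library it was 0.48. Sptlc2 had 29.9, 47.6 and 31.0 CPM in SCCA2KO-labelled ASP libraries, against 32.7, 36.5 and 58.2 CPM in wild-type ASP libraries (-0.23 ± 0.35, and 0.069 without wild-type ASP replicate 3).

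Alox12b had 81.4, 66.5 and 38.6 CPM in SCCA2KO-labelled ASP libraries, against 70.7, 18.3 and 50.3 CPM in wild-type ASP libraries. The groups overlapped (0.42 ± 0.54), and the sign turned with the granular covariate, to -0.57. The Alox12b value was 0.039 without wild-type ASP replicate 2 and 0.15 without SCCA2KO-labelled ASP replicate 1, but 0.87 without wild-type ASP replicate 1 and 0.67 without SCCA2KO-labelled ASP replicate 3. Abca12 had 356, 372 and 368 CPM in SCCA2KO-labelled ASP libraries, against 351, 185 and 380 CPM in wild-type ASP libraries. SCCA2KO-labelled libraries were close together and wild-type replicate 2 was low (0.26 ± 0.34, and -0.14 with the granular covariate). The Abca12 value was 0.00 without wild-type ASP replicate 2 and 0.45 without wild-type ASP replicate 3.

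Under SAL alone, 23 of 34 members were above 0 in SCCA2KO-labelled skin (51.3% of all genes), with a median of 0.28 against 0.01. Without SCCA2KO-labelled SAL replicate 2 that median was 0.066. With edgeR 0 members and 0 genes were called, with 670 genes at an unadjusted p under 0.05, and DESeq2 called 6 genes and limma-voom 0. At that unadjusted level 2 members were higher (2.21% of all genes) and 0 lower (2.16% of all genes). Groups were fully separate for 5 members that were higher (3.62% of all genes), which were Cers4, Elovl7, Sgms1, Slc27a4 and Sptlc3, and for 0 that were lower (4.44% of all genes).

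Slc27a4 had 30.5, 47.7 and 25.1 CPM in SCCA2KO-labelled SAL libraries, against 18.5, 9.46 and 22.3 CPM in wild-type SAL libraries. Each SCCA2KO-labelled library was above each wild-type library (1.04 ± 0.37, unadjusted p = 0.0122 from edgeR). Elovl7 had 61.2, 96.9 and 79.6 CPM in SCCA2KO-labelled SAL libraries, against 59.2, 44.5 and 37.4 CPM in wild-type SAL libraries (0.75 ± 0.29). Its groups met closely at 61.2 and 59.2 CPM without overlap. Lipk had 19.5, 22.6 and 14.8 CPM in SCCA2KO-labelled SAL libraries, against 16.3, 10.9 and 12.2 CPM in wild-type SAL libraries, with overlap (0.53 ± 0.31, and 0.35 with limma-voom).

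The interaction asks whether the genotype difference itself differed between ASP and SAL. With edgeR 0 members and 0 genes were called, with 585 genes at an unadjusted p under 0.05, and DESeq2 called 1 gene and limma-voom 0. Of the 34 members 18 were above 0 (46.7% of all genes), with a median of 0.03 against -0.06 (0.20 without SCCA2KO-labelled SAL replicate 2), and 0 had an unadjusted p under 0.05 in either direction (1.48% of all genes higher, 2.33% lower). The smallest p-values were those of Sgms1 (-0.80 ± 0.38, unadjusted p = 0.0506 from edgeR), Sptlc3 (-0.82 ± 0.53) and Lipn (1.32 ± 0.88). Without wild-type ASP replicate 3 the Sptlc3 value was -0.30, and without SCCA2KO-labelled ASP replicate 3 the Lipn value was 0.50. For Sgms1 the genotype difference was -0.46 ± 0.27 under ASP and 0.34 ± 0.27 under SAL. The genotype estimates were above 0 under both treatments for 17 members, below 0 under both for 4 and of unlike sign for 13.

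ASP and SAL skin differed little in the module on average. Over both genotypes, 16 of 34 members were above 0 for ASP against SAL (49.1% of all genes), with a median of -0.03 against -0.01. Without SCCA2KO-labelled SAL replicate 2 that median was 0.091, with 23 of 34 above 0. With edgeR 0 members and 0 genes were called, with 865 genes at an unadjusted p under 0.05, and DESeq2 and limma-voom called 0 and 0 genes. At that unadjusted level 2 members were higher (3.00% of all genes) and 0 lower (2.64% of all genes), and for 0 members did the 6 ASP and 6 SAL libraries not overlap (0.0978% of all genes higher, 0.0847% lower). Both were acid lipases of the granular layer, Lipm and Lipk, whose genes lie side by side with Lipn on chromosome 19, at 34008254 to 34047903 for Lipk, 34067058 to 34085946 for Lipn and 34100943 to 34122687 for Lipm (GRCm38).

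Lipm had a lowest, median and highest value of 55.8, 66.5 and 78.3 CPM under ASP, against 29.6, 49.5 and 62.8 CPM under SAL. The ranges overlapped (0.49 ± 0.21, unadjusted p = 0.0334 from edgeR), and the value was 0.24 without the 3 libraries farthest from the rest. Lipk had 17.0, 21.5 and 31.6 CPM under ASP, against 10.9, 15.6 and 22.6 CPM under SAL, with overlap (0.49 ± 0.22). Lipn had a like estimate with a wide error (0.48 ± 0.44). In Lipm 34.9% of the exon length overlaps the opposite-strand gene Ankrd22 in the GENCODE exons. As no strand setting is stated, reads in that overlap cannot be assigned to 1 of the 2 genes. Sptlc3 had 57.0, 79.6 and 156 CPM under ASP, against 65.7, 119 and 192 CPM under SAL (-0.45 ± 0.26, and -0.70 without wild-type ASP replicate 3).

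Within SCCA2KO-labelled skin, 17 of 34 members were above 0 for ASP against SAL (48.8% of all genes), with a median of 0.00 against -0.01. Without SCCA2KO-labelled SAL replicate 2 that median was 0.20, with 26 members above 0. With edgeR 0 members and 0 genes were called, with 693 genes at an unadjusted p under 0.05, and DESeq2 called 2 genes and limma-voom 0. At that unadjusted level 0 members were higher (1.54% of all genes) and 2 lower (2.97% of all genes). Separate groups were seen for Kdsr and Sgms2, which were higher (5.85% of all genes), and for Sgms1 and Sptlc3, which were lower (4.63% of all genes).

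Sgms1, the main sphingomyelin synthase of the Golgi, had 93.1, 82.1 and 90.6 CPM in SCCA2KO-labelled ASP libraries, against 136, 148 and 143 CPM in SCCA2KO-labelled SAL libraries. Both groups were tight and well apart (-0.69 ± 0.27, unadjusted p = 0.0206 from edgeR), with means of 88.6 ± 5.76 and 142 ± 6.31 CPM (SD, n = 3 each). Sptlc3 had 109, 65.9 and 79.6 CPM in SCCA2KO-labelled ASP libraries, against 147, 192 and 121 CPM in SCCA2KO-labelled SAL libraries (-0.86 ± 0.37). Its groups were separate by 109 against 121 CPM. Cyp4f39 had 10.4, 14.7 and 7.37 CPM in SCCA2KO-labelled ASP libraries, against 2.40, 3.83 and 7.40 CPM in SCCA2KO-labelled SAL libraries, with overlap at replicate 3 (1.24 ± 0.62).

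Within wild-type skin, 18 of 34 members were above 0 for ASP against SAL (51.5% of all genes), with a median of 0.02 against 0.02. Leaving out wild-type ASP replicate 1 gave -0.12 and leaving out wild-type ASP replicate 2 gave 0.12. With edgeR 0 members and 0 genes were called, with 727 genes at an unadjusted p under 0.05, and DESeq2 called 2 genes and limma-voom 0. No member had an unadjusted p under 0.05 in either direction (2.87% of all genes higher, 1.87% lower). Groups were separate for Lipk and Lipm, which were higher (3.18% of all genes), and for Sult2b1, which was lower (3.60% of all genes).

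Lipm had 60.3, 76.9 and 78.3 CPM in wild-type ASP libraries, against 53.7, 50.7 and 41.2 CPM in wild-type SAL libraries. All ASP libraries were above all SAL libraries (0.56 ± 0.30), and the value was 0.31 without the 3 farthest libraries. Sult2b1 had 11.9, 14.1 and 14.1 CPM in wild-type ASP libraries, against 22.8, 23.3 and 15.1 CPM in wild-type SAL libraries, with SAL replicate 3 close to the ASP range (-0.61 ± 0.36). Cers3 had 17.7, 13.9 and 87.3 CPM in wild-type ASP libraries, against 24.1, 14.9 and 23.1 CPM in wild-type SAL libraries. Its positive estimate (0.93 ± 0.56) came from ASP replicate 3, and without that library it was -0.39.

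Of the neighbouring pathways, cholesterol synthesis was the most uniform between genotypes. Cholesterol is the other main lipid of the barrier, and the list, like the others here, was drawn up with earlier results of these data known. Under ASP 21 of its 22 tested genes were above 0 in SCCA2KO-labelled skin (46.6% of all genes), with a median of 0.49 against -0.04. Averaged over treatments 19 of 22 were (47.4% of all genes), with a median of 0.35 against -0.02. None of the 22 passed the test in any comparison. Cyp51, which demethylates lanosterol, had the smallest p of the list for the genotype averaged over treatments (0.69 ± 0.20), and Msmo1, which acts after it, had 0.61 ± 0.23.

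The remaining lists showed smaller medians in the averaged genotype comparison, where 47.4% of all genes were above 0 with a median of -0.02. Of 23 tested genes of other fatty acid synthesis and elongation 16 were above 0 (median 0.15). Elovl3, the elongase of sebaceous glands and brown fat, had 1.03 ± 0.38, and Elovl5, which elongates polyunsaturated chains, 0.50 ± 0.19. Elovl3, also in the sebocyte marker sum, stood at 33.4 CPM in SCCA2KO-labelled ASP replicate 2, and the next highest library had 15.2 CPM. Of 25 other sphingolipid enzymes and regulators 14 were above 0 (median 0.09), with Ugt8a, which makes galactosylceramide, at -1.32 ± 0.40 and the sphingosine kinase gene Sphk2 at -0.51 ± 0.23. Of 17 other genes of the lipid envelope and barrier phospholipases 13 were above 0 (median 0.13), with the sterol carrier gene Stard5 at 0.54 ± 0.24 and Tgm1, which crosslinks the cornified envelope, at 0.46 ± 0.26. Of 21 epidermal transcription factors 13 were above 0 (median 0.06), with the smallest p in Hopx (0.33 ± 0.19) and Ovol1 (0.55 ± 0.32). In all of these lists 0 genes passed the test. Under ASP, Acer2, an alkaline ceramidase of the Golgi, had 5.38, 8.03 and 3.30 CPM in SCCA2KO-labelled libraries, against 3.14, 10.3 and 133 CPM in wild-type libraries. Its log2 fold change of -3.12 ± 0.95 thus comes with wild-type ASP replicate 3, the same library that was high for Cers3.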

How the data were processed

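Whole-skin RNA libraries were analysed from the deposited table of raw counts per Entrez Gene ID, which the authors had not normalized. The table has 18 columns, of which 12 match the labels; the other 6 stayed out. Tools listed in the submitters' processing notes are TopHat, DESeq, CASAVA 1.8 and bcl2fastq, with mm10 as the build. The counter, its annotation and its strand setting are not given there. IDs without a symbol, 90 of them, held 7.56% to 15.8% of a library's counts.

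Low counts were filtered with filterByExpr. After TMM scaling (0.647 to 1.28), counts were fitted with edgeR 4.0.16 in R 4.3.3 (glmQLFit, robust on, 1 coefficient per group over all 12 libraries). Calls needed an adjusted p under 0.05 (Benjamini-Hochberg, 15341 genes), at a common dispersion of 0.182. The 7 comparisons were genotype within each treatment, treatment within each genotype, their interaction and both averages. CPM per kilobase used the merged length of all GENCODE vM21 exons of a gene, so levels between genes depend in part on the transcripts annotated. Correlations used 100000 permutations. Counting error adds to the spread of the low members, such as Degs2. At most 3.98% of a member's 50-base stretches occur in another gene.

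The members and lists were chosen with earlier results of these data known. Per-library values are given for called members, else the 3 with the smallest p, plus Cers3, Elovl4, Alox12b, Abca12 and Sptlc2 under ASP; other lists name the called genes, else 2, and further genes with values were chosen after seeing them. Listed genes Sts, Flg and Krt85 were not analysed here. Values of some named genes of the other lists are not reported here. Alternatives were RLE and upper-quartile scaling, other filters, robust off, the replicate block, DESeq2 1.42.0, limma-voom (limma 3.58.1), a fit of the compared libraries alone, leaving out libraries and removing Mup genes. The model was also run on simulated counts with known fold changes, and how many it recovered is not given here.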

Additional observations from a re-analysis of the deposited data

Results flagged for a closer look

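Each member was examined in each genotype and each treatment, giving 136 sets of 6 libraries. In 11 sets, 1 library had a gap to the nearest other over Dixon's 95% critical share of the set's range. For independent normal values that happens in about 1 in 20 sets. These sets share libraries and pool groups, so 11 of 136 cannot be set against that rate. Wild-type ASP replicate 3 accounts for 4 of the flagged sets. Sptlc1 stood at 3.17 CPM there, with the nearest wild-type library at 13.5. Cers3 stood at 87.3 CPM in that library, with the nearest wild-type library at 24.1 and the nearest ASP library at 27.7. Smpd3 stood at 127 CPM there among wild-type libraries, with the nearest at 81.7.

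SCCA2KO-labelled ASP replicate 3 had Asah1 at 61.2 CPM, with the nearest SCCA2KO-labelled library at 33.0. The same library had Lipn at 32.4 CPM, with the nearest SCCA2KO-labelled library at 13.3 and the nearest ASP library at 10.8. Smpd3 was at 155 CPM in SCCA2KO-labelled SAL replicate 1, with the nearest SAL library at 81.7. Pnpla1 was at 33.9 CPM in SCCA2KO-labelled SAL replicate 2, with the nearest SAL library at 22.0. Abca12 was at 185 CPM in wild-type ASP replicate 2, with the nearest ASP library at 351. Ugcg was at 49.5 CPM in wild-type ASP replicate 1, with the nearest wild-type library at 38.0.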

How the results depend on the processing

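No member was called under any alternative. DESeq2 called 5 genes for SCCA2KO-labelled against wild type under ASP, 6 under SAL, 8 averaged, 2 for ASP against SAL in SCCA2KO-labelled skin, 2 in wild type and 1 for the interaction. For the averaged genotype comparison, limma-voom called 3 genes, no filter 2 and the replicate block 0. Leaving out both farthest libraries or adding the granular covariate gave 0, and leaving out 1 library gave 0 to 2. Without both farthest, 1 gene was called for ASP against SAL in wild type. Calls without the 3 farthest are not given, as 1 wild-type ASP library is left. Leaving out 1 library gave members' medians of 0.066 to 0.34 for genotype under SAL (0.11 with the covariate), -0.080 to 0.20 for ASP against SAL in SCCA2KO-labelled skin and -0.11 to 0.20 for the interaction. Without the 3 farthest, the median was 0.19 for ASP against SAL in wild type and -0.17 for the interaction. Signs were compared only for the 3 members with the smallest p in each comparison and, for genotype under ASP, the core enzymes. Signs turned for genotype under ASP in Sptlc2 (limma-voom 0.035, without both farthest 0.066, without the 3 farthest 0.15; leaving out 1 library -0.48 to 0.069), in Cers3 (0.041, 0.47 and 0.31; -1.25 to 0.48), in Alox12b (covariate -0.57, without the 3 farthest -0.18) and in Abca12 (covariate -0.14). For ASP against SAL in wild type, Cers3 turned to -0.39 without both farthest and -0.22 without the 3 farthest (leaving out 1 library -0.39 to 1.33). With the covariate, members outside that check also turned for genotype under ASP, in both directions, such as Degs2 (0.48 to -1.05) and Cers2 (-0.07 to 0.86). The cause was not tested. Of 18 same-number pairs of libraries, 5 correlated above 0.1 (-0.21 to 0.16). Pairs of unlike number were not compared, so whether replicate numbers pair the libraries cannot be judged. No member was called with or without the replicate block. The groups hold 3 libraries each, with a biological coefficient of variation of 0.427. The covariate and the removal of 3 libraries were chosen after seeing the data.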

Other observations

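Major urinary protein genes (Mup symbols) held 8.43% to 39.0% of the counts of a library, the highest share being in SCCA2KO-labelled SAL replicate 2, the library in which 11 of the 34 barrier lipid members were highest. Without those genes and the IDs lacking a symbol, 28 of 34 members were above 0 in the averaged genotype comparison, with a median of 0.21.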
